A study of Mus musculus with 9 samples.

Results

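The mitochondrial respiratory chain and the ATP synthase carry out oxidative phosphorylation. Complex I takes electrons from NADH and complex II from succinate, complex III passes them to cytochrome c, and complex IV hands them to oxygen. Complexes I, III and IV pump protons across the inner mitochondrial membrane, and complex V, the ATP synthase, lets them flow back and makes ATP. Most subunits are encoded in the nucleus, and the core of each proton-pumping complex also holds subunits made inside the mitochondrion. Cumulus cells, the granulosa cells around the oocyte in the antral follicle, are known for active glycolysis that supplies the oocyte with pyruvate.

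The genes described here are those whose symbol starts with Nduf, Uqcr or Atp5, the 4 Sdh genes Sdha to Sdhd, and those starting with Cox4i, Cox5, Cox6, Cox7 or Cox8 other than Cox4i2. They were chosen by name and not by any measured value. The reference gene table held 95 protein-coding genes with such names, and 89 of them had a probe set of their own, out of 18194 genes on the array. The 6 others were not analysed here. Each gene was read from the brightest of its probe sets by the 9-array mean, and was tested where 3 or more arrays put it above the 40th percentile of that array. On that filter 87 of the 89 genes passed, and 13447 of the 18194 genes. Cox7b2, with log2 values between 3.58 and 3.83, and Ndufb4, with values between 4.08 and 4.45, were set aside as dim. The tested genes comprised 35 of complex I, 8 complex I assembly factors of the Ndufaf series, 4 of complex II, 8 of complex III, 15 of complex IV and 17 of complex V. No probe set of 1 gene represented a subunit encoded by the mitochondrial genome.

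Messenger RNA of cumulus cells was measured in 3 genotypes on Affymetrix arrays, which asks how the oocyte factors BMP15 and GDF9 bear on the transcripts of these cells. Wildtype females, females without BMP15 (Bmp15-/-) and females without BMP15 that also lacked 1 of their 2 copies of Gdf9 (Bmp15-/-Gdf9+/-, named DM in the labels) gave 3 arrays each. All were 4 to 5 months old on a B6/129 background, and all had received 5 IU of equine chorionic gonadotropin for 48 hours, which stimulates follicle growth. Every array pooled cumulus cells of 75 to 100 complexes from 3 to 4 mice, isolated in medium with 5 µM milrinone, an inhibitor of phosphodiesterase 3. Both mutants lack BMP15, so DM differs from Bmp15-/- by the lost copy of Gdf9, and no group had the Gdf9 loss alone. The p-values rest on the spread between pools of the same genotype, taken as 1 estimate per gene that the 3 genotypes share.

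Of 15 listed cumulus and granulosa markers, 14 had a probe set and exceeded the 40th percentile on all 9 arrays, with Gja1 at a wildtype mean of 14.01 (log2). Arrays correlated at r of at least 0.988 within a genotype and at least 0.975 between genotypes. Bmp15, an oocyte transcript, read 5.10, 9.58 and 8.41 in wildtype and between 5.05 and 5.10 in both mutants, so wildtype array 1 was at the level of the mutants. Summed oocyte marker signal, on the linear scale, ran from 933 to 3273 in wildtype, from 781 to 2256 in Bmp15-/- and from 696 to 1017 in DM, and 1 of 15 tested oocyte markers, Tle6, was lower in each mutant. Of the 9 theca and stroma markers, Col1a2, Dcn and Lum lay below the 40th percentile on all arrays, and of the 5 tested in DM, Acta2, Pdgfra and Col1a1 were higher and Pdgfrb lower. Summed over the list, their signal was 564 to 688 in wildtype pools, 728 to 787 in Bmp15-/- pools and 967 to 1256 in DM pools. Among 8 surface epithelium markers, Krt19 and Cdh1 were below that percentile on all arrays, 3 of the 6 tested (Wt1, Krt18 and Krt8) were higher in DM, and the summed signal was 1005 to 1316, 1656 to 2217 and 2931 to 4376 in the 3 genotypes. Summed cumulus and granulosa signal was 68830 to 71130, 67040 to 68680 and 55120 to 65570, with 2 of the 14 markers higher and 6 lower in DM. Of 5 tested mural granulosa markers 2, Ccnd2 and Mgarp, were lower in DM, with a summed signal of 7982 to 8213 in wildtype pools, 6115 to 6830 in Bmp15-/- pools and 5338 to 6657 in DM pools. The 1 erythroid marker tested, Alas2, was lower by -1.98 in Bmp15-/- and by -2.59 in DM, with Hba-a1 below the 40th percentile on all arrays and a summed signal of 170 to 298, 50.7 to 96.7 and 45.8 to 58.0. None of 3 immune and 1 endothelial markers tested was called in either mutant. The part of these shifts in the results below was not tested, and in pooled cells a smaller share of cumulus cells and less RNA per cell cannot be told apart.

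Part of the chain genes had lower transcript levels in DM than in wildtype cumulus cells, by small amounts: genes of complexes I, III, IV and V and assembly factors were called, and 56 of the 87 genes, all 4 of complex II among them, did not pass the test. In limma's test with Benjamini-Hochberg adjustment over all 13447 genes, 31 of the 87 genes fell (35.6%) and 0 rose, while 28.1% of all genes tested were called, 18.2% as lower and 9.95% as higher. The median log2 difference was -0.27 over the 87 genes and -0.06 over all genes tested. Differences lay below 0 for 80 of the 87 (92%), against 58.5% of all genes tested. At an unadjusted p under 0.05 in that test, 46 of the 87 genes were lower and 0 higher, and of all 13447 genes 3411 were lower and 1977 higher. All 3 DM arrays lay below all 3 wildtype arrays for 50 of the 87 genes (57.5%), against 27.4% of all genes tested. Quantile normalization of the deposited values left 28 of the 87 called (32.2%, against 26.7% of all genes tested), 27 of them among the 31. The share of lower calls among all called genes went from 64.6% to 51.6%.

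In Bmp15-/- against wildtype 1 of the 87 genes, Ndufa4l2, fell and 0 rose (1.15%), whereas 9.07% of all genes tested were called, 5.78% as lower and 3.29% as higher. The median difference of the 87 genes was -0.12, against -0.04 over all genes tested. At an unadjusted p under 0.05 in the same limma fit, 14 of the 87 genes were lower and 0 higher. Of all 13447 genes tested, 2262 were lower and 1291 higher at that threshold. Under quantile normalization the same gene was called, and the share of lower calls among all called genes went from 63.7% to 47%.

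Between the mutants, DM against Bmp15-/-, 1 gene fell, the assembly factor Ndufaf2, and 0 rose (1.15%), with 3.25% of all genes tested called, 1.61% as lower and 1.64% as higher. The median difference was -0.17 over the 87 genes and -0.03 over all genes tested. Differences were below 0 for 75 of the 87 (86.2%), against 57.4% of all genes tested. At an unadjusted p under 0.05 in the limma fit, 21 of the 87 were lower and 0 higher. Of all 13447 genes tested, 1505 were lower and 1165 higher at that threshold. Ndufaf2 was not called without any 1 of 8 arrays, the exception being DM array 2. Without that array 8 genes were called (9.2%, against 6.86% of all genes tested), Ndufaf2 among them. Both mutants are set against the same wildtype arrays, so their values are given side by side. The genotype means were in descending order, from wildtype through Bmp15-/- to DM, for 61 of the 87 genes. Among them were 15 of 17 of complex V, 26 of 35 of complex I and 3 of 8 assembly factors. This order was not counted over all genes tested, so the counts are a description only. Of all genes tested, 56.4% were below 0 in Bmp15-/- against wildtype and 57.4% in DM against Bmp15-/-.

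**Figure D1:**
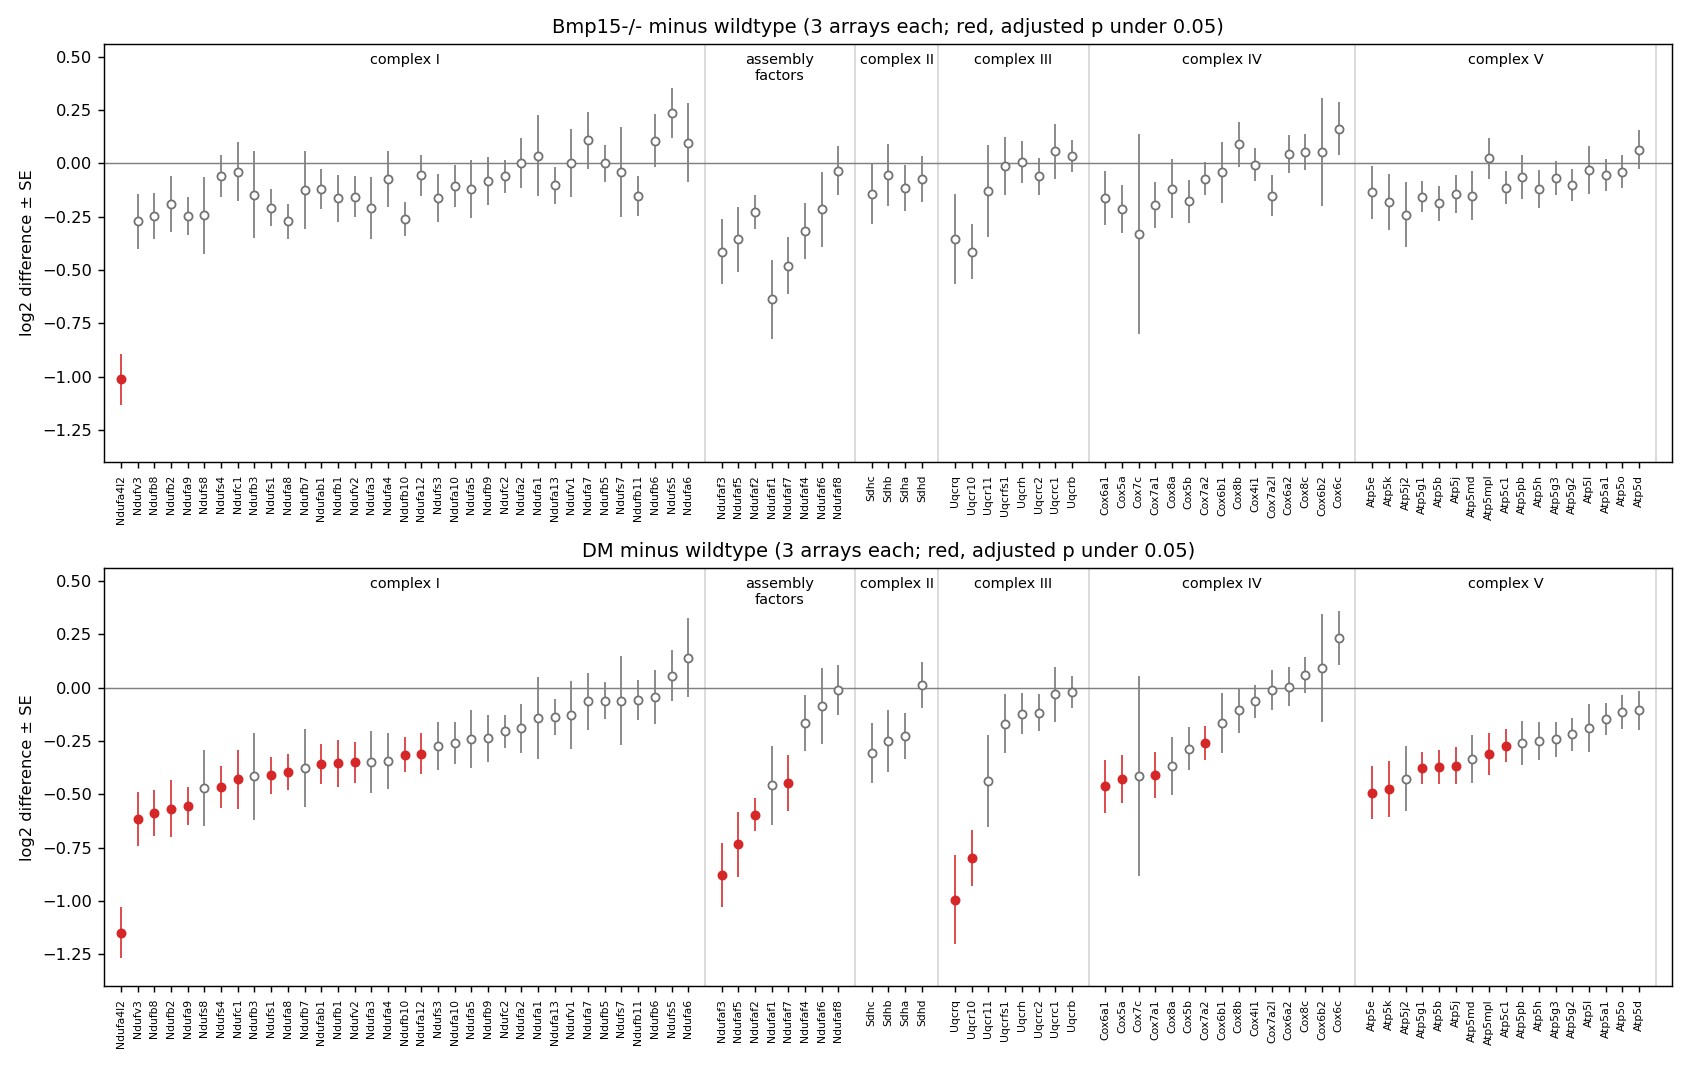
Log2 difference (point, with the standard error of the limma fit as a line) of each of the 87 tested genes from wildtype, in Bmp15-/- (top) and DM (bottom), 3 arrays per genotype, ordered within each complex by the DM difference. Filled red points are the genes at an adjusted p under 0.05, 1 in the top panel and 31 in the bottom panel, all below 0.

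The 3 DM arrays did not lie at 1 level. As the median over the 87 genes of the log2 difference from the wildtype mean, DM arrays 1, 2 and 3 stood at -0.24, -0.13 and -0.44, Bmp15-/- arrays 1 to 3 at -0.07, -0.17 and -0.09, and wildtype arrays at 0.00, 0.02 and -0.04. DM array 3 was thus lowest, DM array 2 was above the lowest Bmp15-/- array, and all mutant arrays were below all wildtype arrays. The medians over all genes tested had these same features in smaller size. DM arrays stood at -0.048, -0.043 and -0.078, Bmp15-/- arrays at -0.006, -0.063 and -0.038, and the lowest wildtype array at -0.004. DM array 3 held the lowest of the 9 values for 66 of the 87 genes, which was not counted over all genes tested. Without DM array 3, 23 genes were lower and 1 was higher (Ndufa6), 27.6% in all against 23.2% of all genes tested, with a median of -0.18, and the 23 were among the 31. Without wildtype array 1 there were 17 calls, 19.5% against 19.7% of all genes tested, and without wildtype array 2 there were 18, 20.7% against 19.7%. In a fit chosen after seeing the data, with wildtype array 2 and Bmp15-/- array 2 left out, the arrays with the highest oocyte marker median of their genotype, 13 genes were called (14.9% against 16.4%), all lower, where 10.3% of all genes tested were lower. The median difference was -0.27 in that fit, as with all arrays.

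Spread within a genotype was widest in DM. For the 87 genes the median SD over 3 arrays was 0.06 in wildtype pools, 0.10 in Bmp15-/- pools and 0.16 in DM pools, and 0.10, 0.12 and 0.16 for all genes tested. The difference between the 3' and 5' probe sets of the Gapdh control, a reading of how far the RNA or its amplification favours 3' ends, was 0.59, 0.52 and 0.56 in wildtype pools, 0.72, 0.66 and 0.73 in Bmp15-/- pools and 0.87, 0.95 and 0.79 in DM pools. It did not overlap between genotypes, so the reading and genotype cannot be told apart. Within DM, array 3 had the lowest reading and the lowest chain transcripts. Only 3 arrays give that order, and whether the reading bears on the chain transcripts was not tested. The same reading of the actin control did overlap, at 1.87 to 1.90 in wildtype, 1.85 to 1.92 in Bmp15-/- and 1.85 to 2.12 in DM. With the Gapdh reading as a covariate, 21 of the 87 genes were called in DM (24.1%), all lower, against 6.51% of all genes tested. The median was -0.70, and 12 of the 31 were among the 21. Since the reading did not overlap between genotypes, that fit cannot tell the reading and genotype apart, and its values are a description only.

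**Figure D2:**
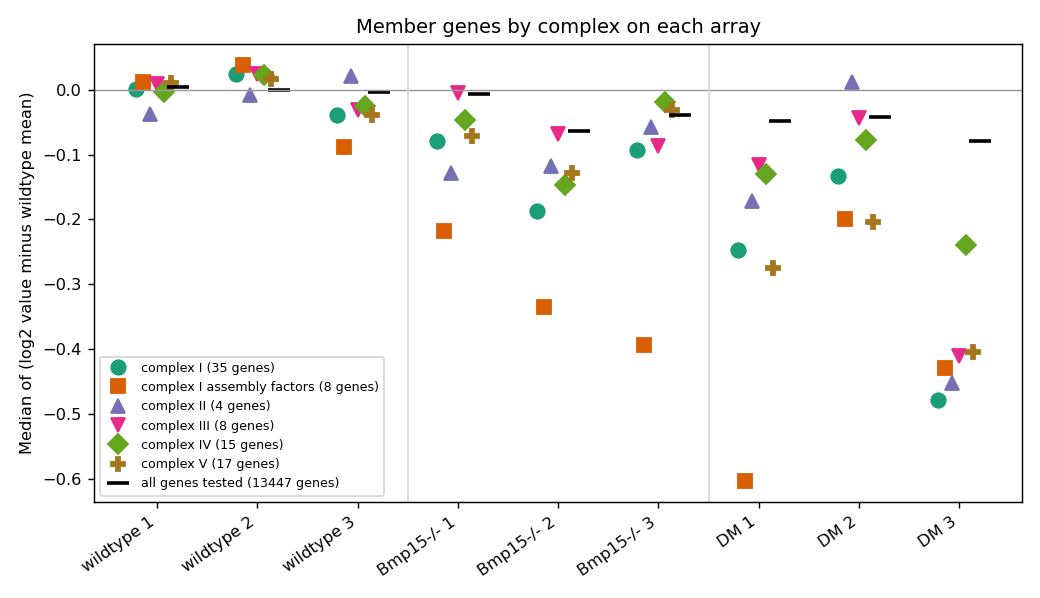
Median over the genes of a complex of the log2 value minus the wildtype mean (y axis), on each of the 9 arrays (x axis), with the median of all 13447 genes as a black bar. DM array 3 is lowest for complexes I to V, at -0.48, -0.45, -0.41, -0.24 and -0.41 in that order, while the black bars stay between -0.08 and 0.00; for the assembly factors DM array 1 is lowest, at -0.60.

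Promoters of these genes are known to hold sites for NRF1, for ETS factors such as GABP, and for YY1, so the windows from 250 bases before to 50 bases after each start in RefSeq's table (GRCm38.p6) were searched on both strands for short motifs. A window was given for 72 of the 87 genes, 27 of the 31 that fell in DM, and for 27018 genes in all. A gene counted where any of its windows held the letters. The NRF1 motif TGCGCA was in 23.6% of the 72 genes and 8.79% of all genes, the ETS core CCGGAAG in 26.4% and 9.93%, and the YY1 motif AAGATGG in 15.3% and 7.28%. The CRE motif TGACG was in 36.1% against 23% and the HIF core ACGTG in 26.4% against 21.8%. Among the 27 genes that fell in DM the shares were 18.5% for TGCGCA, 14.8% for CCGGAAG and 18.5% for AAGATGG, and among the 45 that were not called 26.7%, 33.3% and 13.3%. A motif match is a description of letters, and nothing about binding was measured.

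4 windows are shown, chosen after their values were seen: 3 of genes that fell in DM (Ndufa9, Ndufb8 and Cox6a1) and 1 of a gene that did not pass the test and carries the NRF1 motif in 2 adjoining copies (Uqcrc1). Capitals mark the matches, which do not overlap each other. Counted from the first transcribed base as 0, Ndufa9 (chr6:126849095-126849394, minus strand) has TGCGCA at -56 and AAGATGG at 29. Ndufb8 (chr19:44555393-44555692, minus strand) has the same letters at 5 and 38. Cox6a1 (chr5:115348909-115349208, minus strand) has TGCGCA at -118 and CCGGAAG, read on the other strand, at -16. Uqcrc1 (chr9:108936398-108936697, plus strand) has TGCGCA at 29 and 35.
Ndufa9: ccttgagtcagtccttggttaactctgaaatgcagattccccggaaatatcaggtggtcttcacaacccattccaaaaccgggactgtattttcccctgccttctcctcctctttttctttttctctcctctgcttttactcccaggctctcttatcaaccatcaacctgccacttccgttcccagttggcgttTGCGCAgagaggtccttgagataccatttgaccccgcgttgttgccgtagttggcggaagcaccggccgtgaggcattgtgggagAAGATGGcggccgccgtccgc
Ndufb8: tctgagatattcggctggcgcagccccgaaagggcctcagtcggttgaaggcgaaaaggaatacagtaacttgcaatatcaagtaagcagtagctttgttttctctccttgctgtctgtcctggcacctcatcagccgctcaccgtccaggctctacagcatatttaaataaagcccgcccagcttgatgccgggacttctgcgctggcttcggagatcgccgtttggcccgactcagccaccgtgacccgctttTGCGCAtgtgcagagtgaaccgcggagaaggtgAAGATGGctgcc
Cox6a1: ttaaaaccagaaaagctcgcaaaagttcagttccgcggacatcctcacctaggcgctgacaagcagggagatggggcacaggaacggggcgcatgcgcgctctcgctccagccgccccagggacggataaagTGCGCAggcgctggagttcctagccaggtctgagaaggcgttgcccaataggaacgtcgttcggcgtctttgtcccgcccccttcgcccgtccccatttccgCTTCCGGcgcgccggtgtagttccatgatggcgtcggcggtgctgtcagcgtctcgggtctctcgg
Uqcrc1: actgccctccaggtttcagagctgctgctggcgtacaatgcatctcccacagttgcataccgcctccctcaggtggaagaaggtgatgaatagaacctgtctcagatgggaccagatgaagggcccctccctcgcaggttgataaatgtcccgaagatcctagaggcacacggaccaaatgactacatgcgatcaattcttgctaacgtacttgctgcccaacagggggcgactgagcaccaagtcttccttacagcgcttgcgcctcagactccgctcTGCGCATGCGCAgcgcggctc

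Among the genes listed by symbol under complex I, Ndufa4 and its paralogue Ndufa4l2 included, 14 of 35 fell in DM (40%) and 0 rose. The median difference was -0.31. Of all genes tested, 28.1% were called in DM and 18.2% were lower. These are the shares to set beside each count by complex or subunit group below. Ndufs1, Ndufs3, Ndufs7, Ndufs8, Ndufv1 and Ndufv2 encode the tested core subunits, which carry the flavin and iron-sulfur centres or their scaffold, and 2 of these 6 fell. Ndufs1, which holds iron-sulfur clusters of the electron path, read 9.81, 9.87 and 9.74 in wildtype pools, 9.62, 9.53 and 9.64 in Bmp15-/- pools and 9.34, 9.53 and 9.32 in DM pools. Its DM arrays lay below all wildtype arrays, with a log2 difference of -0.41 ± 0.09 (SE, 3 arrays per genotype; adjusted p = 0.0077). Ndufv2, an iron-sulfur subunit of the NADH-oxidising end, fell by 0.35 (adjusted p = 0.0236). Its 2 other tested probe sets gave -0.05 and 0.03 and were not called in the fit over all probe sets. The call of Ndufv2 was kept in 16 of 23 alternative settings, and not without DM array 3. Ndufv1, which binds the flavin, differed by -0.13 and was not called. Ndufs8 differed by -0.47 with an adjusted p of 0.0793.

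Accessory subunits surround this core and are needed for its assembly or stability. Of the tested Ndufa genes 5 of 14 fell, of the Ndufb genes 4 of 10, and of the Ndufc genes 1 of 2. Of all genes tested 18.2% were lower in DM. Ndufv3, an accessory subunit of the NADH-oxidising end, read 11.92, 12.04 and 11.90 in wildtype pools, 11.68, 11.59 and 11.77 in Bmp15-/- pools and 11.36, 11.59 and 11.07 in DM pools. The DM arrays were below those of wildtype, and DM array 2 came level with the lowest Bmp15-/- array. Its difference from wildtype was -0.62 ± 0.13 (SE) in DM, a 1.53-fold fall (adjusted p = 0.0070), and -0.27 in Bmp15-/-, which was not called.

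Ndufb8, a membrane-arm subunit whose loss is used as a sign of unassembled complex I, read 10.69, 10.62 and 10.54 in wildtype pools, 10.37, 10.36 and 10.38 in Bmp15-/- pools and 9.96, 10.26 and 9.88 in DM pools. All 3 genotypes were apart, in the order wildtype, Bmp15-/-, DM. The fall in DM was -0.59 ± 0.11 (SE) on the log2 scale (adjusted p = 0.0037). Ndufb2, another membrane-arm subunit, read 10.39, 10.44 and 10.26 in wildtype pools, 10.25, 10.12 and 10.15 in Bmp15-/- pools and 9.72, 10.11 and 9.56 in DM pools. Again no DM array reached a wildtype array, and the difference was -0.57 ± 0.13 (SE; adjusted p = 0.0118). Of its 2 other tested probe sets, 1 gave -0.54 and 1 gave 0.22, the latter not called.

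Ndufa9, a subunit at the junction of the matrix and membrane arms, read 11.05, 11.05 and 10.97 in wildtype pools, 10.84, 10.87 and 10.62 in Bmp15-/- pools and 10.45, 10.52 and 10.45 in DM pools. The 3 genotypes did not overlap and the DM arrays lay close together, DM array 3 included. The difference was -0.55 ± 0.09 (SE) in DM (adjusted p = 0.0021) and -0.25 in Bmp15-/- (adjusted p = 0.113, not called). Its promoter window, shown above, holds an NRF1 motif and a YY1 motif, as does that of Ndufb8.

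Ndufs4, an accessory subunit needed for the NADH-oxidising module, fell by 0.47 in DM (adjusted p = 0.0074) and differed by -0.06 in Bmp15-/-. Ndufc1 fell by 0.43, Ndufa8 by 0.40, Ndufab1, the mitochondrial acyl carrier protein, by 0.36, Ndufb1 by 0.35, Ndufb10 by 0.31 and Ndufa12 by 0.31 in DM. The calls of Ndufa12, Ndufc1 and Ndufb1 were lost in 15, 13 and 10 of the 23 alternative settings, the fit without DM array 3 among them. The genes with the differences nearest 0 or above it were Ndufb6 at -0.04, Ndufs5 at 0.06 and Ndufa6 at 0.14, none of them called.

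Complex I assembly factors, which help to build the complex and are not part of the finished enzyme, had the lowest medians of the 6 gene groups against wildtype: -0.45 in DM and -0.34 in Bmp15-/-. Between the mutants, DM against Bmp15-/-, their median was 0.03, with 3 of 8 differences below 0 and 5 above. Of all genes tested, 57.4% were below 0 in that comparison. Of the 8 tested, 4 fell in DM (50%, against 28.1% of all genes called, 18.2% as lower). In Bmp15-/- 0 were called, against 9.07% of all genes tested. All 8 differences were below 0 there, against 56.4% of all genes tested. At an unadjusted p under 0.05 in the limma fit, 6 of the 8 were lower in Bmp15-/-, and 2262 of all 13447 genes tested. Ndufaf3, a factor for an early membrane-bound intermediate, read 8.32, 8.37 and 8.48 in wildtype pools, 8.03, 8.08 and 7.82 in Bmp15-/- pools and 7.43, 7.86 and 7.24 in DM pools. Both mutants lay below wildtype on every array, and DM array 2 overlapped Bmp15-/-. The difference was -0.88 ± 0.15 (SE) in DM, a 1.84-fold fall (adjusted p = 0.0029), and -0.41 ± 0.15 in Bmp15-/- (adjusted p = 0.119).

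Ndufaf5, which modifies the subunit NDUFS7, read 8.30, 8.45 and 8.24 in wildtype pools, 8.11, 7.85 and 7.96 in Bmp15-/- pools and 7.64, 7.89 and 7.25 in DM pools. Here too the mutant arrays were all below wildtype and overlapped each other. The difference was -0.73 ± 0.15 (SE) in DM (adjusted p = 0.0072) and -0.36 in Bmp15-/- (adjusted p = 0.175).

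Ndufaf2, a chaperone of a late intermediate, read 10.54, 10.62 and 10.45 in wildtype pools, 10.32, 10.31 and 10.29 in Bmp15-/- pools and 9.92, 9.99 and 9.91 in DM pools. The genotypes were apart with little spread in either mutant. Its difference from wildtype was -0.59 ± 0.08 (SE) in DM (adjusted p = 0.0008) and -0.23 ± 0.08 in Bmp15-/- (adjusted p = 0.1), and DM was lower than Bmp15-/- by -0.37 ± 0.08 (adjusted p = 0.0394). Ndufaf7, a methyltransferase of complex I assembly, fell by 0.45 in DM (adjusted p = 0.0326) and differed by -0.48 in Bmp15-/- (not called). Its call in DM was lost in 7 of the 23 alternative settings, the fit without DM array 3 among them. Ndufaf1, which acts in membrane-arm assembly, differed by -0.64 in Bmp15-/- and -0.46 in DM and was called in neither.

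**Figure D3:**
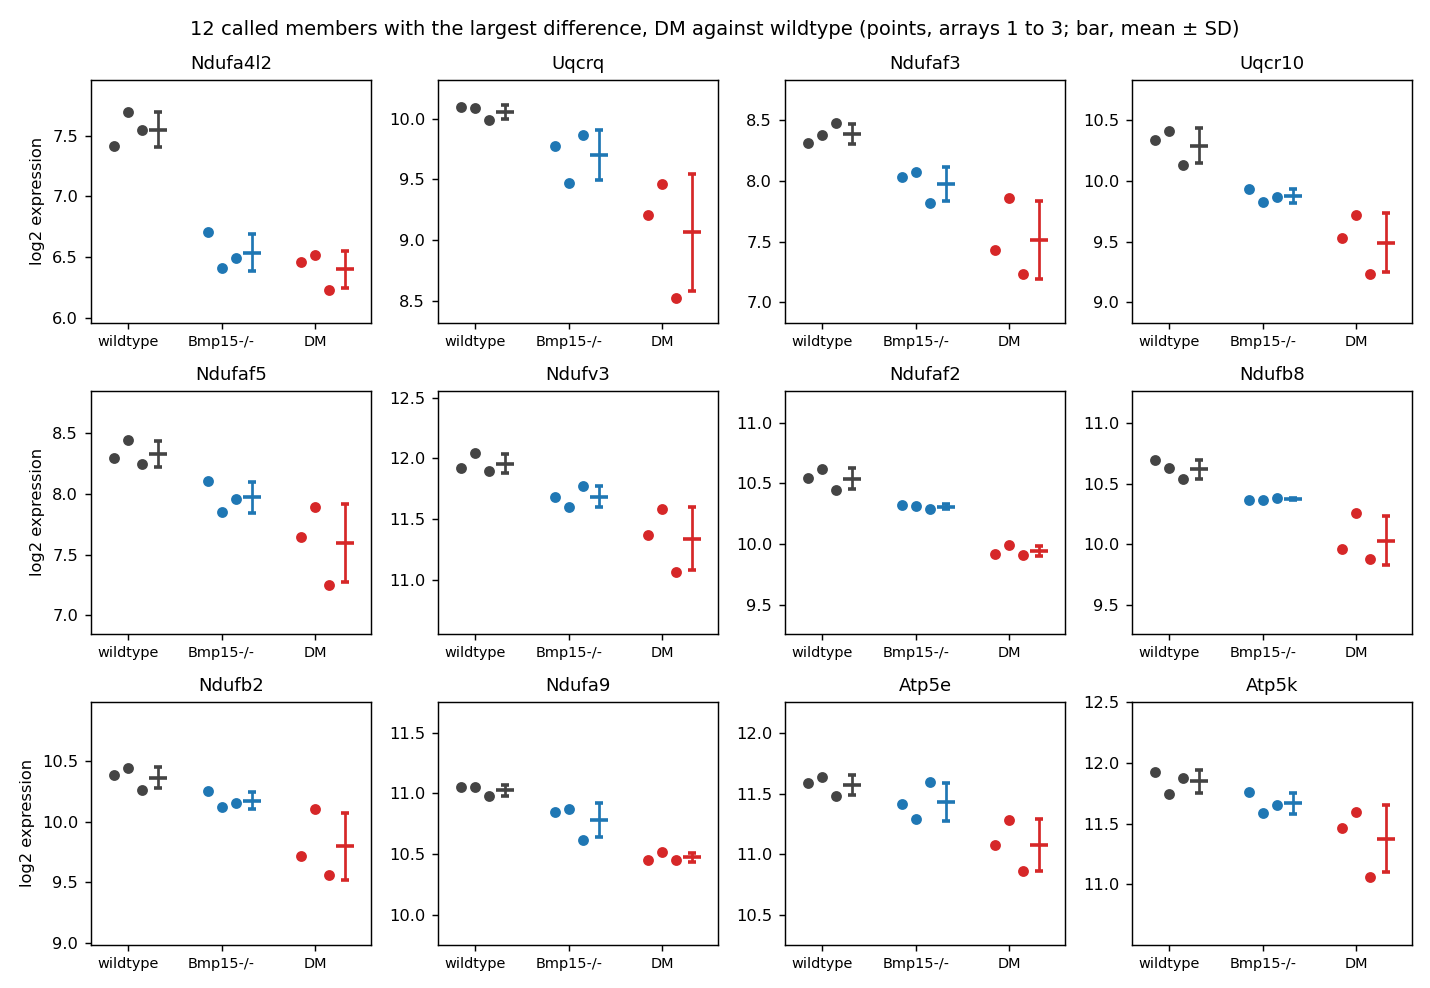
Log2 expression on each array (points, arrays 1 to 3 from left to right; bar, mean ± SD) of the 12 genes with the largest differences among those that fell in DM; each panel spans 2 log2 units but is centred on its own gene. In all 12 panels the 3 DM points lie below the 3 wildtype points, and in all 12 DM array 2 is the highest DM point.

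Ndufa4l2 had the largest difference of the 87 genes in both mutants. It encodes a paralogue of NDUFA4, known as a target of hypoxia-inducible factors that lowers complex I activity, and NDUFA4 itself is now counted with complex IV. Ndufa4l2 read 7.41, 7.69 and 7.54 in wildtype pools, 6.71, 6.40 and 6.50 in Bmp15-/- pools and 6.46, 6.51 and 6.23 in DM pools. Every mutant array was below every wildtype array, and the mutants overlapped each other. The difference was -1.01 ± 0.12 (SE) in Bmp15-/-, a 2.02-fold fall (adjusted p = 0.0021), and -1.15 ± 0.12 in DM, a 2.22-fold fall (adjusted p = 0.0002). DM minus Bmp15-/- was -0.14, with a 95% interval from -0.41 to 0.13. Ndufa4 read 10.30, 10.16 and 10.14 in wildtype pools, 10.24, 10.10 and 10.04 in Bmp15-/- pools and 9.96, 10.07 and 9.55 in DM pools. Its DM arrays were also below wildtype, but the difference of -0.34 had an adjusted p of 0.0827 and was not called.

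In complex II 0 of 4 genes were called in either mutant, while 28.1% of all genes tested were called in DM and 9.07% in Bmp15-/-. This enzyme is also succinate dehydrogenase of the citric acid cycle, and its genes are all nuclear. The DM differences were -0.23 for Sdha, the flavin-bearing subunit, -0.25 for Sdhb, the iron-sulfur subunit, -0.31 for the membrane anchor Sdhc and 0.01 for the anchor Sdhd. At an unadjusted p under 0.05 the limma fit gave 0 of the 4 in DM and 0 in Bmp15-/-. The probe set that stands for Sdhd and its other tested probe set disagreed: the latter, dimmer one gave -0.50 in DM, with an adjusted p of 0.0033 in the fit over all probe sets, and -0.37 in Bmp15-/-.

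Complex III had 2 of 8 genes that fell in DM (25%, against 28.1% of all genes called, 18.2% as lower). It had 0 that rose and a median of -0.14. Its core list held Uqcrfs1, the Rieske iron-sulfur protein, and the core proteins Uqcrc1 and Uqcrc2: 0 of 3 were called in DM, with differences of -0.17, -0.03 and -0.12. Of the 5 small subunits 2 fell, Uqcrq and Uqcr10, and the median was -0.44. Whether core and small subunits differ was not tested.

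Uqcrq, a small membrane subunit, read 10.10, 10.08 and 9.99 in wildtype pools, 9.77, 9.47 and 9.86 in Bmp15-/- pools and 9.20, 9.46 and 8.53 in DM pools. The genotypes lay in order without overlap, with DM array 3 well below the other DM arrays. The difference was -0.99 ± 0.21 (SE) in DM, a 1.99-fold fall (adjusted p = 0.0075), and -0.73 without DM array 3 (adjusted p = 0.0067). In Bmp15-/- it was -0.35 ± 0.21 (adjusted p = 0.316).

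Uqcr10, a small subunit next to cytochrome c1, read 10.34, 10.41 and 10.13 in wildtype pools, 9.94, 9.83 and 9.87 in Bmp15-/- pools and 9.53, 9.72 and 9.23 in DM pools. No 2 genotypes overlapped. The difference was -0.80 ± 0.13 (SE) in DM (adjusted p = 0.0021) and -0.41 ± 0.13 in Bmp15-/- (adjusted p = 0.0771). In contrast Uqcrb and Uqcrh differed by -0.02 and -0.12 in DM and were not called, and Uqcrc1, the core protein whose window is printed above, read 9.19, 9.28 and 9.31 in wildtype pools, 9.59, 9.25 and 9.13 in Bmp15-/- pools and 9.11, 9.40 and 9.18 in DM pools. The 3 genotypes overlapped for that gene, and the 95% interval of its DM difference ran from -0.32 to 0.26. Outside the name rule, Cyc1, cytochrome c1 of complex III, differed by -0.27 (not called), and its electron acceptor Cycs, cytochrome c, by 0.00 (not called).

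In complex IV, 4 of 15 genes fell in DM (26.7%, against 28.1% of all genes called, 18.2% as lower). This complex had 0 that rose and a median of -0.17. Its tested genes include ubiquitous subunits and isoforms known from heart, skeletal muscle or testis. Cox5a, an early nuclear subunit of assembly, fell by 0.43 (adjusted p = 0.0204). Cox5b, its zinc-binding partner, differed by -0.29 (adjusted p = 0.0583) in its brightest probe set. In the fit over all probe sets 1 of its others was called lower, at -0.34 (adjusted p = 0.0266), and 1, with a mean of 6.17 on the log2 scale, was called higher, at 0.54. Cox6c was the only gene of the 87 whose DM arrays were all above wildtype, at 11.95, 11.93 and 11.77 against 11.64, 11.68 and 11.62. Its difference of 0.23 was not called (adjusted p = 0.197), and its other tested probe set, with a mean of 11.17, gave -0.13 and was not called. Cox7c could not be read closely, since DM array 1 was at 5.97 and the other DM arrays at 7.96 and 7.94, and its 95% interval ran from -1.47 to 0.64.

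Several complex IV subunits have isoforms, whose values are given side by side; differences between isoforms were not tested. Cox4i1, the general isoform of the regulatory subunit 4, read 11.85, 11.84 and 11.78 in wildtype pools, 11.83, 11.79 and 11.83 in Bmp15-/- pools and 11.81, 11.80 and 11.66 in DM pools. The 3 genotypes overlapped, with DM minus wildtype at -0.06 (not called) and a 95% interval from -0.24 to 0.11. Cox4i2, the isoform known from lung and from low oxygen and left out of the list by its rule, read 9.11, 9.40 and 9.14 in wildtype pools, 7.45, 7.45 and 7.31 in Bmp15-/- pools and 5.39, 6.03 and 5.52 in DM pools. The 3 genotypes were far apart, at -1.81 ± 0.16 (SE; adjusted p = 0.0004) for Bmp15-/- against wildtype, -3.57 ± 0.16 (adjusted p = 3.64e-06) for DM against wildtype, and -1.76 ± 0.16 (adjusted p = 0.0034) for DM against Bmp15-/-.

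Cox6a1, the ubiquitous isoform of subunit 6a, read 12.23, 12.24 and 12.27 in wildtype pools, 12.20, 12.04 and 12.02 in Bmp15-/- pools and 11.92, 11.95 and 11.49 in DM pools. The genotypes were in order without overlap, and it fell by 0.46 in DM (adjusted p = 0.0218), while Cox6a2, the heart and muscle isoform, lay between 6.63 and 6.87 on all arrays, with a difference of 0.00. Cox7a2, the ubiquitous isoform of subunit 7a, read 13.87, 13.89 and 13.85 in wildtype pools, 13.82, 13.79 and 13.78 in Bmp15-/- pools and 13.63, 13.70 and 13.50 in DM pools. It had little spread and again no overlap, and fell by 0.26 in DM (adjusted p = 0.0349).

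Cox7a1, the heart and muscle isoform, read 5.46, 5.63 and 5.58 in wildtype pools, 5.55, 5.22 and 5.33 in Bmp15-/- pools and 5.04, 5.13 and 5.26 in DM pools, near the dim end of the filter. Its DM arrays were below wildtype, with a fall of 0.41 (adjusted p = 0.0199). Cox7a2l, a factor that joins complexes III and IV into supercomplexes, differed by -0.01 (not called), with DM values from 11.07 to 11.32 that overlapped wildtype. The liver-type Cox8a differed by -0.37 (adjusted p = 0.0746), Cox8b by -0.11, Cox6b1 by -0.17 and its testis isoform Cox6b2 by 0.09, none of them called.

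**Figure D4:**
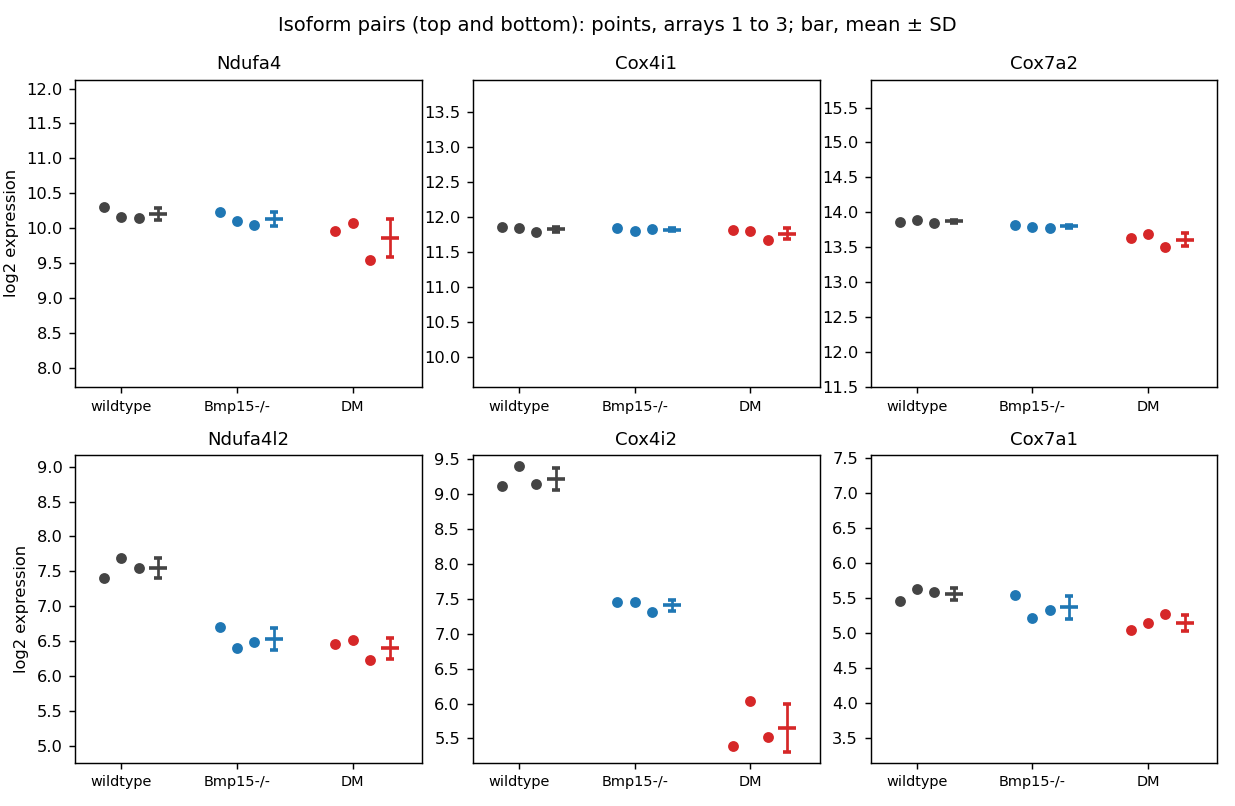
Log2 expression on each array (points, arrays 1 to 3; bar, mean ± SD) for 3 sets of isoforms, the general form above and the tissue-restricted or hypoxia-linked form below; all panels span the same log2 range. Cox4i2 falls from 9.22 to 7.41 to 5.65 over the genotype means, where Cox4i1 stays within 11.66 to 11.85 on all arrays.

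In complex V, 7 of 17 genes fell in DM (41.2%, against 28.1% of all genes called, 18.2% as lower) and 0 rose. All 17 differences were below 0, against 58.5% of all genes tested, with a median of -0.27. All 3 DM arrays were below all wildtype arrays for 15 of the 17 (88.2%), against 27.4% of all genes tested. The F1 head, where ATP is made, held 3 that fell of 5. Atp5e, the epsilon subunit of the central stalk, read 11.59, 11.64 and 11.48 in wildtype pools, 11.41, 11.29 and 11.60 in Bmp15-/- pools and 11.08, 11.29 and 10.86 in DM pools. Its DM arrays were below wildtype, while Bmp15-/- overlapped wildtype, and the DM difference was -0.49 ± 0.12 (SE; adjusted p = 0.0168). Atp5b, the catalytic beta subunit, fell by 0.37 (adjusted p = 0.0086) and Atp5c1, the gamma subunit of the rotor, by 0.27 (adjusted p = 0.0281). Atp5a1, the alpha subunit, at -0.15, and Atp5d, the delta subunit, at -0.11, were not called, but a dimmer probe set of Atp5a1 was called lower, at -0.50 (adjusted p = 0.0063), in the fit over all probe sets.

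The membrane ring through which protons turn the rotor is built from 1 protein encoded by 3 genes. Atp5g1 read 10.69, 10.74 and 10.66 in wildtype pools, 10.58, 10.56 and 10.49 in Bmp15-/- pools and 10.30, 10.36 and 10.30 in DM pools. The genotypes were in order with small spreads, and DM was lower by -0.38 ± 0.07 (SE; adjusted p = 0.0053). Atp5g2 read 12.17, 12.21 and 12.19 in wildtype pools, 12.13, 12.05 and 12.09 in Bmp15-/- pools and 11.98, 12.04 and 11.89 in DM pools. Atp5g3 read 13.44, 13.40 and 13.35, then 13.33 on all 3 Bmp15-/- arrays, then 13.17, 13.26 and 13.05. Both had the same order of genotypes without overlap, but their differences of -0.22 and -0.24 missed the threshold, with adjusted p of 0.0573 and 0.0503. Whether the 3 genes differ from each other was not tested.

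Of the 5 small membrane subunits 2 fell, and of the 4 peripheral stalk subunits, which hold the head still, 1 fell. Atp5k, a subunit that joins synthase dimers, read 11.92, 11.74 and 11.87 in wildtype pools, 11.76, 11.59 and 11.65 in Bmp15-/- pools and 11.46, 11.59 and 11.06 in DM pools. The DM arrays were below wildtype, and DM array 2 was level with a Bmp15-/- array. The difference in DM was -0.47 ± 0.13 (SE; adjusted p = 0.0260). Atp5mpl fell by 0.31 (adjusted p = 0.0411), and Atp5j, coupling factor 6 of the stalk, fell by 0.37 (adjusted p = 0.0141), while Atp5o, the subunit that ties the stalk to the head, differed by -0.11 and was not called. The other probe set of Atp5o was called lower, at -0.33 (adjusted p = 0.0136), in the fit over all probe sets. The calls of Atp5mpl and Cox7a2 were lost in 13 and 12 of the 23 alternative settings, and that of Atp5c1 in 9.

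Many of these genes have more than 1 probe set on the array, 51 of the 89. Among the 31 genes that fell in DM, 14 had another tested probe set, 23 in all. Of these 19 were below 0, 11 were called lower and 0 higher in a fit over all probe sets. These genes were picked by their calls on the same arrays, so the 23 are no separate support. Of all tested genes of the rule, 46 had another tested probe set, 71 in all: 61 were below 0, 26 were called lower and 1 higher. The share called over all probe sets was not counted. For the complex I core gene Ndufs8, 3 of 6 probe sets were called lower in DM, though not the brightest. The DM differences of its probe sets ran from -1.06 to -0.13.

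Genes that serve the chain without being named by the rule were read from lists. Of 36 tested assembly factors outside the Ndufaf series, 10 fell and 1 rose in DM (30.6%, near the 28.1% of all genes tested; median -0.28), and in Bmp15-/- 5 fell and 0 rose (13.9%, against 9.07%). The 4 with the smallest p in DM were Ttc19, which acts on complex III, lower by -0.78 (adjusted p = 0.0008), Cox15, of heme a synthesis, lower by -0.55 (adjusted p = 0.0013), Tmem126a, a complex I factor, lower by -0.63 (adjusted p = 0.0034), and Lrpprc, which stabilises mitochondrial messenger RNA, higher by 0.80 (adjusted p = 0.0034). Cox15 also fell in Bmp15-/-, by 0.56 (adjusted p = 0.0050). Timmdc1, a complex I factor, was lower in Bmp15-/- by -0.59 (adjusted p = 0.0070), at 0.07 and not called in DM, and higher in DM than in Bmp15-/- by 0.67 (adjusted p = 0.0091). Of 11 genes of coenzyme Q synthesis, which make the electron carrier between complexes I, II and III, 3 fell in DM and 0 rose (27.3%, near the 28.1% of all genes): Coq3 by 0.83, Coq6 by 0.48 and Coq9 by 0.41. Of 8 genes of ATP and proton handling in the inner membrane, 0 were called in either mutant.

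Among 18 tested nuclear regulators and factors of mitochondrial transcription, 2 rose and 2 fell in DM (22.2%, below the 28.1% of all genes tested). Gabpa, a subunit of the ETS factor GABP, averaged 9.97 in wildtype, where its lowest value was 9.95, read 10.05, 10.06 and 9.86 in Bmp15-/- pools, and read 9.45, 9.37 and 9.46 in DM pools. Only the DM arrays stood apart, lower than wildtype by -0.54 ± 0.08 (SE; adjusted p = 0.0017) and lower than Bmp15-/- by -0.56 (adjusted p = 0.0104). Ppargc1a, a coactivator known to raise mitochondrial genes, read 4.36, 4.53 and 4.22 in wildtype pools, 4.61, 4.67 and 4.32 in Bmp15-/- pools and 5.46, 5.17 and 5.42 in DM pools. It was below the 40th percentile on all wildtype and Bmp15-/- arrays and passed the filter only through DM, so its place among the 2 that rose supports nothing and its values are given as a description. Tfb2m, a mitochondrial transcription factor, rose by 0.38 and Mterf3 fell by 0.40 in DM. Polrmt, the mitochondrial RNA polymerase, fell by 0.76 in Bmp15-/- (adjusted p = 0.0283) and differed by -0.10 in DM.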

How the data were processed

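The values are log2 expression per probe set on 9 Affymetrix arrays, as the authors deposited them. RMA and the affy package, which correct background, normalize between arrays and summarise probes, are the tools named per the submitters' processing notes. No version is stated in the sources read. The values ran from 2.87 to 14.53. Per the labels' protocols, 10 ng of RNA per sample went through 2 rounds of cDNA synthesis, which favours 3' ends. Scanner files were not used here.

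Probe sets were named through a platform annotation and RefSeq's gene annotation of assembly GRCm38.p6. Of 45101 probe sets, 34958 had 1 gene. Genotype was the only term of 1 fit over all 9 arrays with limma 3.58.1 (lmFit and eBayes, R 4.3.3, version 1.17.8 of data.table), with 6 residual degrees of freedom, and the threshold was 0.05 for a 2-sided p adjusted by Benjamini-Hochberg across the 13447 genes tested. Figures were drawn with matplotlib 3.10.9 (Python 3.11.15). The script was tested on simulated data. Values on every array are given for the called genes whose arrays did not overlap, up to the 12 with the largest difference per comparison, and for isoform sets. From each list of other pathway genes up to 4 called genes with the smallest p are named; further genes of those lists, and Ndufs1, Uqcrc1, Cox6c and Cox7c, were chosen after their values were seen. The genes, lists and alternatives were chosen with earlier results of these data known. Alternatives covered the dim filter, the probe set that stands for a gene, normalization, a floor on low values, the spread estimate, array weights, the arrays in the fit, a replicate block and the Gapdh control reading as a covariate. The numbers 1 to 3 in the labels were not taken as a pairing. Deviations of same-numbered arrays from their genotype mean correlated between -0.08 and 0.26, and 3 arrays per genotype are too few to exclude a pairing.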

Additional observations from a re-analysis of the deposited data

How the results depend on the processing

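Only 3 arrays per genotype limit the precision, RMA compresses differences of dim genes, and probe sets of 1 gene can disagree. The count of 31 genes called in DM against wildtype was 35.6% of the 87, against 28.1% of all genes tested. Under the 13 alternatives to the processing that were planned it stayed between 21 and 41. It was lowest with the Gapdh covariate (24.1% against 6.51%) and highest with the mean of all probe sets (47.1% against 29.6%). With 1 array left out it ran from 17 to 45. It was 17 without wildtype array 1 (19.5% against 19.7%), 18 without wildtype array 2 (20.7% against 19.7%) and 45 without DM array 2 (51.7% against 30.9%). With both arrays of the highest oocyte marker median left out, an alternative chosen after seeing the data, the count was 13 (14.9% against 16.4%). The median of -0.27 ran from -0.33 to -0.18 when 1 array was left out and was -0.70 with the Gapdh reading as a covariate. The covariate fit cannot tell that reading and genotype apart, here or in the other 2 comparisons below.

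For Bmp15-/- against wildtype 1 gene was called (1.15%, against 9.07% of all genes tested). The count was 3 with the probe set of the largest interquartile range (3.66% against 12.8%) and 3 with probe sets ending in _x_at, _s_at or _a_at left out (3.53% against 8.9%). It was 2 with the mean of all probe sets (2.3% against 9.62%) and 2 with an intensity trend and robust prior (2.3% against 9.87%). Array weights gave 7 (8.05% against 17.5%), and only the arrays of the 2 genotypes gave 6 (6.9% against 14.1%). The Gapdh covariate gave 8 (9.2% against 5.15%) and a median of -0.32 in place of -0.12. Leaving out 1 array gave 1 to 6 calls and medians from -0.13 to -0.07. The 6 calls (6.9% against 12.4%) came without DM array 2, which enters that contrast only through the shared spread.

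For DM against Bmp15-/- 1 gene was called (1.15%, against 3.25% of all genes tested). The count was 0 with the largest interquartile range, with median centring, with only the arrays of the 2 genotypes and without the arrays of the highest oocyte markers. It was 2 with the trend (2.3% against 4.51%) and 2 with array weights (2.3% against 3.99%). The Gapdh covariate gave 7 (8.05% against 2.59%), with a median of -0.40 in place of -0.17. Leaving out 1 array gave 0 to 8 calls, with 8 without DM array 2 (9.2% against 6.86%), and medians from -0.23 to -0.07.

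With the replicate number as a block, 27 genes were called in DM against wildtype (31%, against 26.7% of all genes tested). In Bmp15-/- against wildtype 1 was called (1.15% against 8.06%), and in DM against Bmp15-/- 0 (2.68% of all genes tested). Of the 9 arrays, 4 correlated best with an array of their own number, which is too few arrays to decide whether the numbers pair them.

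Among genes called with all arrays or under the alternative, signs turned under the choice of probe set alone; differences called in neither fit also turned in other settings, such as Ndufs7 in DM, at 0.16 without DM array 3. With the largest interquartile range Cox5b was 0.54 in both mutants against wildtype, Ndufv2 0.031, Sdhd -0.50 and Atp5c1 0.17 in DM. With the _x_at, _s_at and _a_at probe sets left out Cox5b was again 0.54 in both, and Sdhd was -0.50, Atp5c1 0.17, Ndufa12 0.10 and Ndufb2 0.22 in DM. With the mean of all probe sets Sdhd was -0.24. Ndufa4l2, Ndufaf3, Uqcr10, Ndufaf5, Ndufv3 and Ndufs4 were called in DM in all 23 settings run, and Uqcrq in all 22 that tested it. The cause of these differences was not tested.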
